A study of Mus musculus with 4 samples.

Results

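The solute carrier genes (Slc) encode the membrane proteins that move small molecules and ions by carrier or exchange, and they are described here in the dentate gyrus (DG) of mice after 2 antidepressant treatments. A gene was taken in when the array annotation gave a probe set 1 gene symbol, that symbol began with Slc and a digit, and the mean signal over the 4 arrays was at least 50. Where several probe sets of a gene passed, the brightest on that mean stood for it. The array held 262 such genes, of which 150 passed and 112 did not, among 7935 genes measured in all by the same steps. The choice used the level over all arrays and no difference between them, but the treated arrays enter that mean. A dim gene, Slc or other, could thus pass through 1 high group. The lowest means inside it were 50.5 for Slc9a8 and 53.2 for Slc7a3, and the highest outside it were 49.7 for Slc5a6 and 49.6 for Slc10a3.

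The 4 groups were male mice of the C57BL/6J or C57BL/6N substrain, bought at 8 weeks of age and labelled C57Bl/6 without the substrain of each pool, and all arrays carried DG RNA. The sham group was handled and anesthetized without a shock, and the ECS group received electroconvulsive stimulation, a rodent form of electroconvulsive therapy, in 11 sessions over some weeks. The fluoxetine group drank the selective serotonin reuptake inhibitor (SSRI) fluoxetine, 22 mg/kg per day, for 4 weeks, and the vehicle group is labelled as given water for 28 days. The labels of the sham and ECS samples give 6 h, whereas the methods place the dissection a day after the last session. RNA of a group was pooled and put on 1 Affymetrix mouse genome 430A 2.0 array, so that no replicates, no SD and no test exist for any value. The fluoxetine solution held saccharin, and its pool came from 3 samples selected for a small frequency facilitation at the mossy fiber synapse, which makes it a chosen set of responders. The methods give this selection for fluoxetine, while the series description names no treatment, so whether the ECS samples were also chosen is not settled. The methods do state that facilitation was reduced in the ECS mice as well. How many mice stood behind each of the other pools is not given in the sources used here.

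Carriers take up glutamate, GABA, glycine and monoamines from the extracellular space, load transmitters into vesicles, bring glucose, lactate and amino acids to neurons and glia, set intracellular chloride and pH, and move zinc, iron and magnesium. In the hippocampus, the glutamate carriers Slc1a2 and Slc1a3 are known as astrocytic and Slc1a1 as neuronal, and Slc30a3 fills the mossy fiber vesicles of granule cells (GCs) with zinc. The serotonin transporter Slc6a4 is the target of fluoxetine and is made by neurons outside the DG.

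Values are signal intensities as deposited, which have no common scale between arrays. Over the 13422 probe sets past the filter the median log2 ratio was -0.10 for ECS over sham and 0.12 for fluoxetine over vehicle, so counts are also given median-centred, that is, after each array was set to its own median log2 signal. A gene is called if treated and control signal lay at least 1.5-fold apart, which is 0.585 on the log2 scale, and the call is higher or lower by the treated signal. The centred log2 ratio of sham over vehicle is the difference between the untreated pools, which also differed in handling. The control spread of a gene is the scaled median absolute deviation of that ratio among the 500 probe sets closest to it in level. It ran from 0.11 to 0.41 over the Slc genes, with the dimmest genes at the upper end. The markers fixed for the tissue were present: Prox1, Calb1, Dsp, Tdo2 and Il1r1 of GCs all passed the filter, and the last 4 of them were lower with both treatments. Of the choroid plexus markers, Ttr, Folr1, Otx2 and Aqp1 were all below 50 on every array, and Kl had log2 ratios of -0.39 and -0.76. Of 5 leptomeninges markers measured, 1 was higher and 2 lower with ECS and 2 higher and 1 lower with fluoxetine, with a summed signal of 657 and 444 in the sham and ECS pools and 747 and 882 in the vehicle and fluoxetine pools. The part of such tissue in the values below was not tested.

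Of the 150 Slc genes, most were called in neither comparison. With ECS, 7 of 150 were higher and 10 lower, which is 4.67% and 6.67%, against 3.84% and 6.47% of all genes measured. With fluoxetine, 11 were higher and 4 lower, or 7.33% and 2.67%, against 8.49% and 3.26%. Among these 11, Slc16a6, Slc22a4 and Slc37a1 passed the filter only through their fluoxetine signal, and Slc27a3 through its ECS and fluoxetine signals. Higher with both were 3 genes and lower with both were another 3, each 2.0% of the Slc genes, against 2.79% and 1.9% of all genes. Each of these shares was near that of all genes, so the counts set the carriers apart in neither treatment. Median-centred ECS ratios gave 10 higher and 9 lower genes, against backgrounds of 5.34% and 4.18%. Median-centred fluoxetine ratios gave 8 and 7, against 5.82% and 5.13%. The numbers for both stayed at 3 and 3 (3.04% and 1.88%). The share of higher calls among the called Slc genes thus depended on the level of the arrays, going from 41.2% to 52.6% with ECS and from 73.3% to 53.3% with fluoxetine. Over all genes it went alike, from 37.3% to 56.1% and from 72.2% to 53.2%. With centring, Slc13a3, Slc46a3 and Slc25a38 passed the size as higher with ECS and Slc1a3 no longer did as lower. With fluoxetine, Slc26a2, Slc39a6 and Slc50a1 passed it as lower, and Slc6a6, Slc16a6 and Slc25a20 no longer did as higher. Relative to vehicle after centring, the sham pool was low for Slc13a3 and Slc25a38, at -0.41 and -0.39, with ECS at 0.17 and 0.29. For Slc46a3, sham stood at 0.06 and ECS at 0.69.

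The median log2 ratio of the 150 genes was -0.06 with ECS and 0.14 with fluoxetine, beside -0.10 and 0.12 for all genes measured. ECS ratios ran from -1.36 to 1.00 and fluoxetine ratios from -1.55 to 1.80, and 53 genes, or 35.3%, lay under 1.2-fold in both comparisons, against 40.7% of all genes. In all, 25 genes were called in at least 1 comparison, which is 16.7%, against 17.3% of all genes. Of the 25, 9 were below 50 on at least 1 array, and their ratios are the less certain. Across the 150 genes the ECS and fluoxetine ratios correlated at 0.42 (Spearman, a description over genes, which are not replicates), and at 0.49 across all genes. The comparisons share no array, but the arrays were made from the same kind of tissue with 1 labelling kit.

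**Figure D1:**
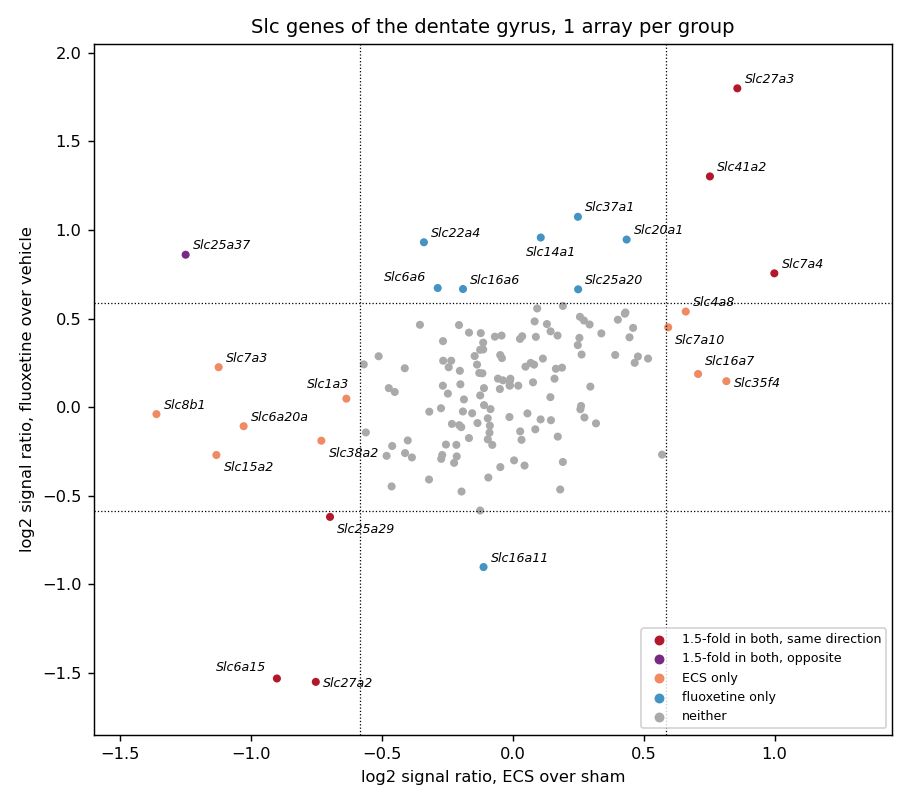
Log2 signal ratio of ECS over sham (x axis) against fluoxetine over vehicle (y axis) for the 150 Slc genes, 1 point per gene. Dotted lines mark 1.5-fold, colours mark the genes past it, and the 25 called genes are named. The 6 genes called alike in both lie at the upper right and lower left, and Slc25a37 stands alone at the upper left.

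The 3 genes that were higher with both treatments were Slc7a4, Slc41a2 and Slc27a3. Slc7a4 belongs to the family of the cationic amino acid transporters. Its signal was 378 in the sham pool, 756 with ECS, 496 in the vehicle pool and 837 with fluoxetine. Both treated pools lay above both control pools, also after centring, and the log2 ratios were 1.00 and 0.76, where the control spread was 0.16. Its second probe set had 1.21 and 0.57, and the third, the dimmest, 0.81 and 0.27, so the ECS increase was past 1.5-fold on all 3 and the fluoxetine increase on 1.

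Slc41a2, a magnesium transporter, had signals of 125 in the sham pool, 211 with ECS, 191 in the vehicle pool and 470 with fluoxetine. Its log2 ratios were 0.75 and 1.30 at a control spread of 0.20, and sham and vehicle differed by -0.10 after centring. Slc27a3, of the fatty acid transport family whose members join fatty acids to coenzyme A, had 38.8 in the sham pool, 70.3 with ECS, 42.4 in the vehicle pool and 148 with fluoxetine. Both control pools were below 50, so that it passed the filter through its treated pools, where it was high. Its ratios of 0.86 and 1.80 are thus uncertain in size. With signals under 50 taken as 50 they were 0.49 and 1.56, which leaves the ECS value under 1.5-fold.

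The 3 genes that were lower with both were Slc6a15, Slc27a2 and Slc25a29. Slc6a15, a sodium-coupled carrier of branched-chain amino acids and proline in neurons, was the brightest of them and far above the filter on every array. It had 925 in the sham pool, 495 with ECS, 1628 in the vehicle pool and 563 with fluoxetine. Both treated pools lay below both control pools, also after centring. The log2 ratios were -0.90 and -1.53 at a control spread of 0.14, with -0.31 for sham over vehicle. In this bulk RNA, a lower signal from fewer cells of a type and from less RNA per cell cannot be told apart. The GC marker Calb1, a calcium buffer, was lower in the same pools, with 3814, 1399, 5395.5 and 1353 in the sham, ECS, vehicle and fluoxetine pools. Over the 5 measured GC markers the summed signal went from 6078 to 2579 with ECS and from 9087 to 2796 with fluoxetine. Calb1 was the largest part of each sum. Of the 5, 4 were lower with each treatment, and none was at 0. The other, Prox1, was called in neither, with -0.19 and 0.22. The paper counts Calb1 and Tdo2 as markers of mature GCs and gives Dsp and Il1r1 a similar developmental profile. The part of the GC markers in the Slc6a15 result was not tested.

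Slc27a2, a very long-chain acyl-CoA synthetase and fatty acid transporter, had 71.1 in the sham pool, 42.2 with ECS, 110 in the vehicle pool and 37.6 with fluoxetine. Both treated pools fell below 50, and the log2 ratios of -0.75 and -1.55 became -0.51 and -1.14 with signals under 50 taken as 50. This gene and its relative Slc27a3 thus moved in opposite directions, each near the lower end of the signal range. Their relatives Slc27a1, with -0.46 and -0.22, and Slc27a4, with 0.45 and 0.39, were named outside the rule, after their values were seen, and were all under 1.5-fold. Slc25a29, the mitochondrial carrier of basic amino acids, had 257 in the sham pool, 159 with ECS, 316 in the vehicle pool and 206 with fluoxetine, and log2 ratios of -0.70 and -0.62. It had 5 probe sets past the filter. The second brightest had -0.64 and -0.80, but the other 3 ran from -0.62 to 0.41 with ECS and from -0.54 to 0.16 with fluoxetine, so they did not all share its direction.

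**Figure D2:**
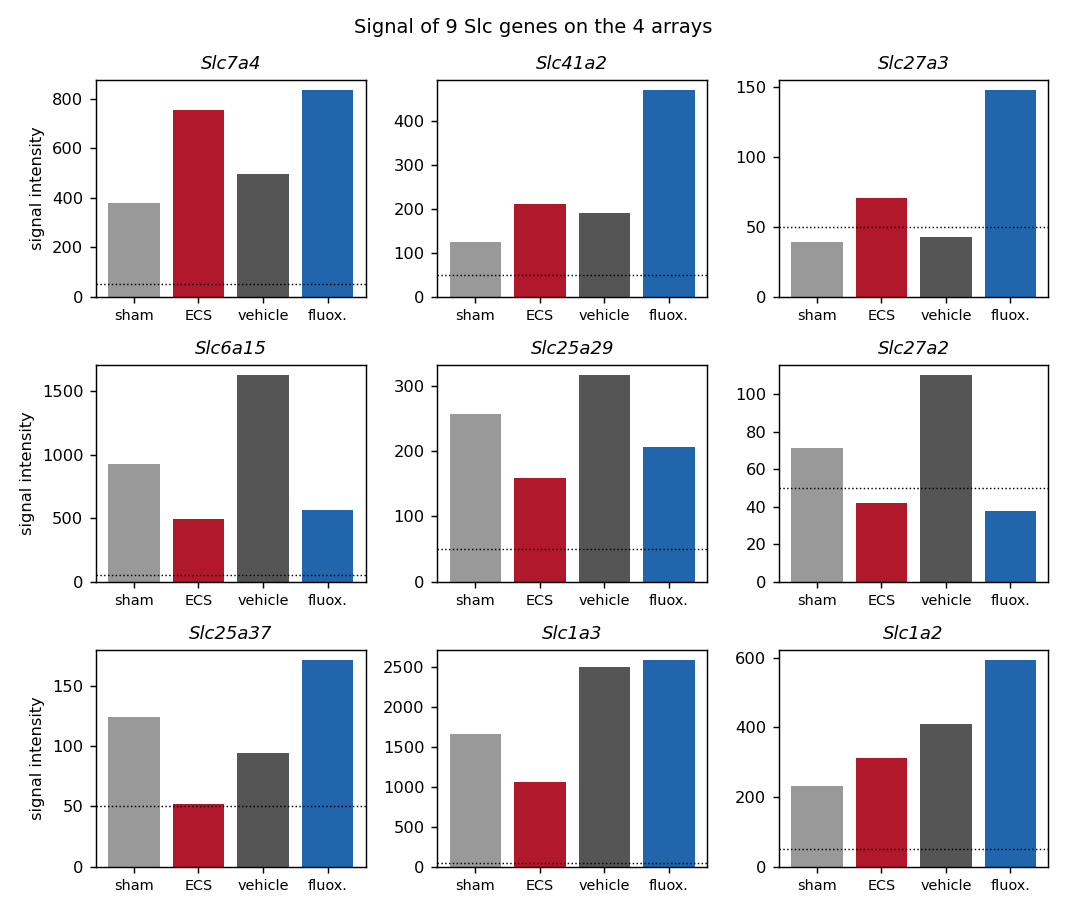
Signal intensity (y axis, from 0, linear, with its own range in each panel) of 9 Slc genes on the sham, ECS, vehicle and fluoxetine arrays, 1 bar per array, with the level of 50 dotted. Slc7a4, Slc41a2 and Slc27a3 are higher and Slc6a15, Slc25a29 and Slc27a2 lower in each treated pool than in its own control pool. Slc25a37 is lower with ECS and higher with fluoxetine, and Slc1a3 is lower with ECS.

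The promoters of the genes called alike in both comparisons were read for motifs of activity-regulated factors, because these are the carriers that moved together. RefSeq (GRCm38.p6) gave a promoter for 4 of the 6. The 250 bases before the start are printed for Slc41a2 (chr10:83337818-83338067, minus strand) and for the pair of opposite direction, Slc27a3 (chr3:90389939-90390188, minus strand) and Slc27a2 (chr2:126552774-126553023, plus strand), each 5′ to 3′ in the direction of the gene, with motif matches in capitals.
Slc41a2: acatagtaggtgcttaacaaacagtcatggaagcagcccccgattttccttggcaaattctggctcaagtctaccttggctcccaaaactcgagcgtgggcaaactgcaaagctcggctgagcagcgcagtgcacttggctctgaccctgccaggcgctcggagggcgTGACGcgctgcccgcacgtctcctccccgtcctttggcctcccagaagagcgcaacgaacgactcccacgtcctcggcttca
Slc27a3: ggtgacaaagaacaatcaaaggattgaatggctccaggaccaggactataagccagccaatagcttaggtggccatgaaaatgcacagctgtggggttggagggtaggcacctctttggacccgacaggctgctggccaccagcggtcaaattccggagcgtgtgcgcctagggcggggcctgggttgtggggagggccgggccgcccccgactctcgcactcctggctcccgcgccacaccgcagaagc
Slc27a2: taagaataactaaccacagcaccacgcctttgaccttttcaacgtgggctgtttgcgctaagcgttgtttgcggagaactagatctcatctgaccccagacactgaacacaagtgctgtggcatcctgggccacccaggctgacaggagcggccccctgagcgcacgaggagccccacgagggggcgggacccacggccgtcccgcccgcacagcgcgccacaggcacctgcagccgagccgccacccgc
The motifs searched on both strands were the cyclic AMP response element TGACGTCA, its core TGACG, which lies within it, the AP-1 site TGANTCA and the Egr site GCGNGGGCG. The only match was a core that begins 82 bases before the start of Slc41a2. The Slc25a29 promoter held none either. Cores stood in 27.1% of the 8511 promoters of that length of measured genes and in 25.0% of the 164 promoters of 121 Slc genes, and full elements in 2.51% and 1.22%. AP-1 sites stood in 4.34% and 4.27%, and Egr sites in 9.46% and 12.8%. A match describes the letters and is no evidence of binding.

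Slc25a37, or mitoferrin-1, which brings iron into mitochondria, was the 1 Slc gene called in opposite directions. Its signal was 124 in the sham pool, 52.1 with ECS, 94.2 in the vehicle pool and 171 with fluoxetine. The log2 ratios were -1.25 and 0.86 at a control spread of 0.28. The sham pool was itself above the vehicle pool by 0.90 after centring, which is as large as the fluoxetine difference, and no second probe set passed. The difference between the treatments was not tested.

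The carriers fell into 14 lists by substrate, which are shown with their medians in the plot of ratios by role. The background for the counts of calls in these lists and in the marker lists is the share of all genes. With ECS, 3.84% of all genes were higher and 6.47% lower, and with fluoxetine 8.49% and 3.26%. Most lists are short, so that single genes make up their counts. Of 3 measured genes of glutamate uptake, 1 was lower with ECS and none was called with fluoxetine. Slc1a3, the astrocytic carrier GLAST, had 1656 in the sham pool, 1066 with ECS, 2498 in the vehicle pool and 2582 with fluoxetine. The ECS pool was thus below its control, with a log2 ratio of -0.64 against 0.05 with fluoxetine, at a control spread of 0.13. After median-centring the ECS value was -0.53, under 1.5-fold. Its other probe sets had -0.83 and -0.46 with ECS and 0.07 and -0.02 with fluoxetine.

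Slc1a2, the main astrocytic glutamate carrier GLT-1, had 233, 314, 409 and 593 in the sham, ECS, vehicle and fluoxetine pools, and log2 ratios of 0.43 and 0.53, neither past 1.5-fold. Slc1a1, the neuronal carrier, had 1464, 992, 1882 and 1705 in the same order and log2 ratios of -0.56 and -0.14. Its ECS value lay just under the size, and its other probe sets, with -0.10 and 0.17, did not show it. Among the 7 astrocyte markers measured, Gfap had 2.24 and 2.43 and Aqp4 0.34 and 0.86, whereas Gja1 had -0.19 and -0.08. ECS had 1 higher marker and fluoxetine 3, without any lower. Their summed signal was 12226 and 11929 in the sham and ECS pools and 16400.5 and 19149 in the vehicle and fluoxetine pools, with none at 0. Glul, the glutamine synthetase of astrocytes, had -0.50 with ECS and -0.01 with fluoxetine. The part of the number of astrocytes in the Slc1a3 value was not tested.

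Of 9 genes on the array for uptake of GABA, glycine, monoamines and choline, 2 passed the filter and neither was called. Slc6a9, a glycine transporter, had 0.19 and 0.22, but its other probe set had -0.71 and -0.18, and Slc29a4, a monoamine carrier of low affinity, had -0.10 and -0.18. The serotonin transporter Slc6a4 was below the filter, at 2.5 in the sham pool, 12.6 with ECS, 9.1 in the vehicle pool and 3.0 with fluoxetine, and no fold is given at that level. Of 5 vesicular genes 1 passed. Slc32a1, which loads GABA and glycine into the vesicles of interneurons, had 259, 238, 343 and 429 in the sham, ECS, vehicle and fluoxetine pools and log2 ratios of -0.12 and 0.32. The vesicular glutamate transporter Slc17a6 stayed under 50 on every array with both of its probe sets.

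**Figure D3:**
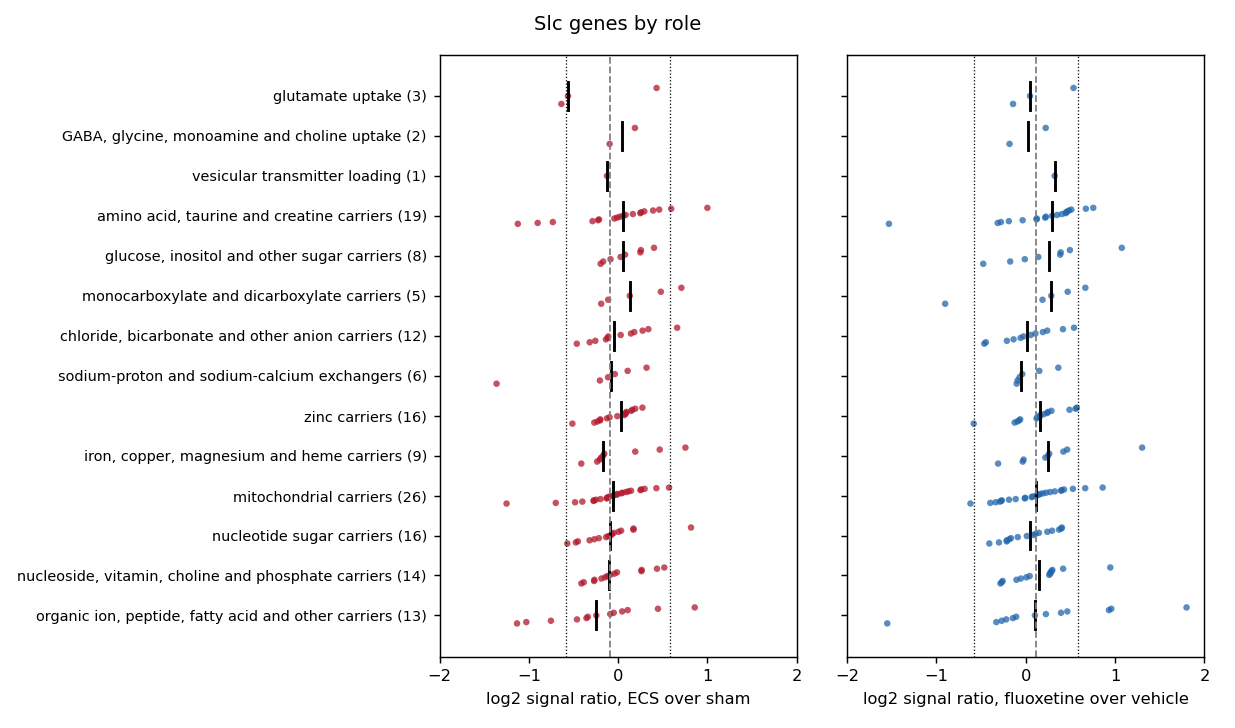
Log2 signal ratios of the 150 Slc genes by role, ECS over sham on the left and fluoxetine over vehicle on the right. Each point is 1 gene, black bars are list medians, dotted lines mark 1.5-fold, the dashed line is the median of all genes measured, and parentheses hold the number of genes. List medians stay between -0.56 and 0.13 with ECS and between -0.05 and 0.32 with fluoxetine, and single genes lie apart from their lists.

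Of 19 measured carriers of amino acids, taurine and creatine, ECS gave 2 higher and 3 lower, and fluoxetine 2 higher and 1 lower. The list medians were 0.06 and 0.29, against -0.10 and 0.12 over all genes. Slc38a2, which takes up glutamine and other small neutral amino acids, had 821 in the sham pool, 494 with ECS, 1172 in the vehicle pool and 1028 with fluoxetine. It was low with ECS only, at -0.73 and -0.19 on the log2 scale, with 0.14 as its control spread. Its relative Slc38a1 had 0.06 and -0.04. Slc7a10, a carrier of glycine, serine and D-serine, had 0.59 and 0.45, just past and just under the size. Slc7a3, a cationic amino acid transporter, had -1.12 and 0.23, but its sham signal was 49.9 and its ECS signal 22.9, so that the ECS ratio was 0.00 with signals under 50 taken as 50.

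Slc7a5 and Slc3a2 form the carrier of large neutral amino acids known as LAT1 and its heavy chain. Slc7a5 had 0.46 and 0.45 and Slc3a2 -0.01 and 0.12, all under 1.5-fold. Slc6a6, the taurine transporter, which was named after its values were seen, had 425 in the sham pool, 348 with ECS, 462 in the vehicle pool and 736 with fluoxetine. Its log2 ratios were -0.29 and 0.67, and the fluoxetine value was 0.55 after median-centring, under 1.5-fold. Slc6a17, a neutral amino acid carrier of synaptic vesicles, had 0.25 and 0.35. The cystine carrier Slc7a11 was below the filter, with signals from 13.8 to 39.4. Slc6a20a, a carrier of proline and related imino acids whose symbol placed it among the remaining carriers, was called with ECS only, with 97.7 in the sham pool, 47.9 with ECS, 150 in the vehicle pool and 139 with fluoxetine, or log2 ratios of -1.03 and -0.11.

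Of 8 measured carriers of glucose and other sugars, none was called with ECS and 1 was higher with fluoxetine. Slc2a1, the glucose transporter of the blood-brain barrier and of astrocytes, had 658 in the sham pool, 671 with ECS, 1029 in the vehicle pool and 1344 with fluoxetine. Its log2 ratios were 0.03 and 0.38, with 0.19 and 0.25 on its second probe set. Slc2a3, the glucose transporter of neurons, had 2050, 1932, 2822 and 2800 in the same order, a difference of -0.09 and -0.01 at a control spread of 0.14. Slc37a1, a sugar phosphate exchanger, was the called gene. Its signal passed 50 only with fluoxetine, at 103, after 31.9, 37.9 and 49.1 in the sham, ECS and vehicle pools, and its log2 ratio of 1.07 thus belongs to a gene that passed through its high group. Slc37a4, which carries glucose 6-phosphate, had 0.40 and 0.49, and Slc50a1 -0.20 and -0.48, the latter -0.60 after median-centring. The 5 measured endothelial markers, of which none was called, had medians of 0.13 and 0.06, and their summed signal was 613 and 672 in the sham and ECS pools and 843 and 941 in the vehicle and fluoxetine pools.

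Among 5 measured carriers of monocarboxylates and dicarboxylates, 1 was higher with ECS, and 1 was higher and 1 lower with fluoxetine. Slc16a7, the lactate and pyruvate carrier MCT2 of neurons, had 68.4 in the sham pool, 112 with ECS, 119 in the vehicle pool and 135 with fluoxetine. After centring and relative to the vehicle pool, sham stood at -0.29, ECS at 0.53 and fluoxetine at 0.06 on the log2 scale, so that ECS lay farther from vehicle than sham did. The log2 ratios were 0.71 and 0.19 at a control spread of 0.28. Slc16a1, the lactate carrier MCT1, had 0.13 and 0.47. Slc16a11 had 117, 108, 186 and 99.2 in the sham, ECS, vehicle and fluoxetine pools and log2 ratios of -0.11 and -0.90. After centring, sham and ECS each lay at -0.17 relative to vehicle, within the control spread of 0.29, and fluoxetine lay apart from these 3 pools at -1.03. Slc13a3, a sodium-coupled dicarboxylate carrier, had 0.48 and 0.29, and 0.59 with ECS after median-centring. Its sham pool then stood at -0.41 relative to vehicle and its ECS pool at 0.17. Slc16a6, named after its values were seen, was at 85.4 with fluoxetine and between 38.3 and 53.8 elsewhere. Its log2 ratios were -0.19 and 0.67, the latter 0.54 after median-centring, and it passed the filter through its high group.

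Of 12 measured chloride, bicarbonate and other anion carriers, 1 was called, higher with ECS. That gene, the sodium-driven chloride and bicarbonate exchanger Slc4a8, had 34.1, 53.9, 55.8 and 81.1 in the sham, ECS, vehicle and fluoxetine pools and log2 ratios of 0.66 and 0.54. With signals under 50 taken as 50, its ECS value was 0.11, and it passed the filter only through its fluoxetine signal. The chloride exporter Slc12a5, or KCC2, which keeps chloride low in mature neurons, had 4237 in the sham pool, 3396 with ECS, 5585 in the vehicle pool and 5486 with fluoxetine. Its log2 ratios were -0.32 and -0.03 at a control spread of 0.11. The chloride importer Slc12a2, or NKCC1, had -0.12 and 0.19. Neither was past 1.5-fold, and without replicates the ECS value of Slc12a5 was not tested.

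Slc4a4, the sodium bicarbonate cotransporter of astrocytes, had -0.26 and -0.21 on its brightest probe set and -0.22 and -0.29 on the next. The remaining one past the filter, with 378 in the sham pool, 239 with ECS, 719 in the vehicle pool and 344 with fluoxetine, had -0.66 and -1.06. It thus passed the size in both comparisons where the others did not, and the probe sets of this gene did not share 1 value. Slc4a3, an anion exchanger of neurons, had -0.46 and -0.45, and Slc4a2 0.34 and 0.42.

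**Figure D4:**
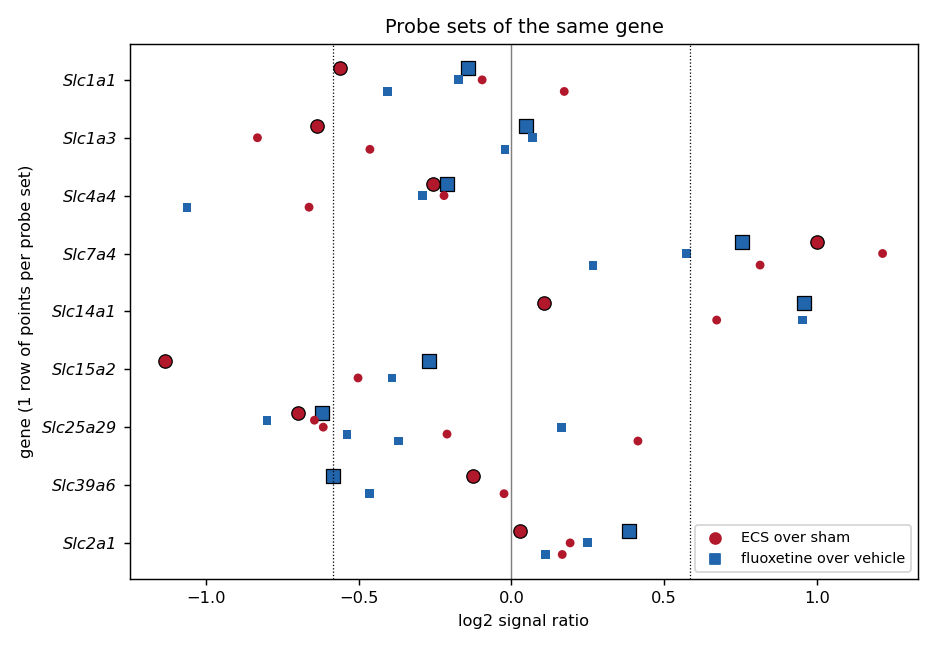
Log2 signal ratios of the probe sets of 9 Slc genes with more than 1 probe set past the filter, ECS over sham as red circles and fluoxetine over vehicle as blue squares, 1 row per probe set. The brightest probe set of each gene has a dark outline and dotted lines mark 1.5-fold. Probe sets of Slc7a4 and Slc1a3 lie on the same side of 0 with ECS, while 1 probe set of Slc4a4, at -0.66 and -1.06, lies apart from the others.

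Of 6 measured genes of the sodium-proton and sodium-calcium list, 1 was lower with ECS and none was called with fluoxetine. Slc8b1, the sodium-calcium exchanger of mitochondria, had 110 in the sham pool, 42.7 with ECS, 77.5 in the vehicle pool and 75.4 with fluoxetine. Its log2 ratios were -1.36 and -0.04, but the sham pool stood above the vehicle pool by 1.01 after centring, the largest such difference in size among the 150 genes. The exchanger Slc8a1 had -0.20 and -0.10 and Slc24a3 0.11 and -0.07. Slc9a3r1 and Slc9a3r2, which the symbol rule took in, encode scaffold proteins of a proton exchanger and not carriers. Slc9a3r1, named for this reason only, had -0.04 and 0.15, and Slc9a3r2 had -0.11 and 0.36.

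None of the 16 measured zinc carriers was called in either comparison, as deposited. Their medians were 0.03 and 0.16, and 10 of the 16 lay under 1.2-fold in both, where 40.7% of all genes did. Slc30a3, or ZnT3, had 519.6 in the sham pool, 554 with ECS, 611 in the vehicle pool and 899 with fluoxetine. The log2 ratios were 0.09 and 0.56, both under 1.5-fold, at a control spread of 0.15. The exporter Slc30a1 had -0.27 and 0.12. Slc39a6, a zinc importer, had 2009, 1842, 3114 and 2078 in the sham, ECS, vehicle and fluoxetine pools and log2 ratios of -0.12 and -0.58. Its fluoxetine value lay at the edge of the size, was -0.71 after median-centring and was -0.46 on its second probe set. Slc39a8 had 0.19 and 0.57 and Slc39a1 0.27 and 0.49. The metallothionein genes Mt1 and Mt2, which answer to zinc, had -0.11 and 0.28, and -0.29 and 0.56, and the neuronal Mt3 had 0.13 and 0.02.

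Of 9 measured carriers of iron, copper, magnesium and heme, only Slc41a2 was called. The copper importer Slc31a1 had 0.47 and 0.25, with -0.03 and 0.70 on its other probe set. Slc11a1, an iron carrier of phagocytes, had 45.9, 39.8, 58.9 and 81.2 in the sham, ECS, vehicle and fluoxetine pools and log2 ratios of -0.21 and 0.46. It passed the filter only through its fluoxetine signal. The 6 microglia markers measured had medians of -0.07 and 0.29, with 1 of them lower with ECS and 2 higher with fluoxetine. Their summed signal was 3518 and 3210 in the sham and ECS pools and 4917 and 6563 in the vehicle and fluoxetine pools, none was at 0, and their part in the Slc11a1 values was not tested. Slc48a1, a heme carrier, had -0.19 and -0.02.

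Of 26 measured mitochondrial carriers, 2 were lower with ECS, while fluoxetine gave 2 higher and 1 lower. The medians were -0.05 and 0.12. The adenine nucleotide carrier Slc25a4 had 5083, 5042, 8267 and 8994 in the sham, ECS, vehicle and fluoxetine pools, or -0.01 and 0.12 at a control spread of 0.11. Slc25a20, which carries acylcarnitines for fatty acid oxidation, had 199, 236, 297 and 471 in the same order and log2 ratios of 0.25 and 0.66. On its second probe set the fluoxetine value was 0.28, and after median-centring that of the first was 0.54. Slc25a30 had 0.43 and 0.53.

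Of 16 measured nucleotide sugar carriers and their relatives, 1 was higher with ECS and none was called with fluoxetine. Slc35f4 had 72.5 in the sham pool, 128 with ECS, 148 in the vehicle pool and 164 with fluoxetine. The log2 ratios were 0.82 and 0.15. After centring and relative to vehicle, sham stood at -0.52, ECS at 0.40 and fluoxetine at 0.02, so that sham and ECS lay on either side of the other pools. Slc35a5 had -0.07 and 0.40, Slc35b4 0.17 and 0.40, and Slc35e4 -0.32 and -0.41. Among 14 measured carriers of nucleosides, vitamins, choline and phosphate, 1 was higher with fluoxetine and none was called with ECS. This was the phosphate importer Slc20a1, with 569 in the sham pool, 769 with ECS, 689 in the vehicle pool and 1327 with fluoxetine, or log2 ratios of 0.43 and 0.95 beside a control spread of 0.14. The folate carrier Slc19a1 had -0.39 and -0.28, with -0.73 and -0.48 on its second probe set, and Slc46a3 had 0.52 and 0.27, the former 0.63 after median-centring.

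The 13 remaining carriers held 1 higher and 3 lower gene calls for ECS, and 3 and 1 for fluoxetine. The shares of all genes were 3.84% and 6.47% with ECS, and 8.49% and 3.26% with fluoxetine. The symbol rule also placed Slc4a1ap here, which encodes an adaptor protein and not a carrier, and which had -0.25 and 0.22. Slc15a2, the peptide transporter PEPT2, had 401 in the sham pool, 183 with ECS, 401 in the vehicle pool and 332 with fluoxetine. The log2 ratios were -1.13 and -0.27, where the control spread was 0.19. After centring and relative to vehicle, sham stood at 0.50, ECS at -0.52 and fluoxetine at -0.40. The sham pool was thus above the vehicle pool, and both treated pools were below it. The other probe set of Slc15a2 had -0.50 and -0.39. Slc14a1, a urea transporter, and Slc22a4, a carrier of organic cations and ergothioneine, were named after their values were seen. Slc14a1 had 159, 171, 212 and 412 in the sham, ECS, vehicle and fluoxetine pools and log2 ratios of 0.11 and 0.96, while its other probe set had 0.67 and 0.95. The fluoxetine increase was thus alike on both, and the ECS values were not. Slc22a4 passed 50 only in the vehicle and fluoxetine pools, at 51.1 and 97.4, and had log2 ratios of -0.34 and 0.93. It thus passed the filter through its high group. Slc22a17, the brightest of these, had -0.09 and -0.14.

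Partner and regulator genes of the carriers were read from a fixed list, of which 21 were measured. Each treatment had 3 higher genes, 2 of them shared, and no lower one, where 3.84% and 8.49% of all genes were higher. After median-centring 4 were higher with ECS and 2 with fluoxetine. Those in both were Gad2, which makes GABA, with 0.73 and 0.97, and Hk2, which traps glucose by phosphorylation, with 0.60 and 1.36. Hk2 was dim, at 59.5 in the sham pool. Their brighter relatives on the same list were called in neither comparison. Gad1, at 3712 in the sham pool, had 0.015 and 0.29, and Hk1, at 1270 there, had 0.09 and 0.26. Sgk1, a kinase that acts on several carriers, had 709 in the sham pool, 1729 with ECS, 1310 in the vehicle pool and 1584 with fluoxetine, or 1.29 and 0.27. Atp1b3, a subunit of the sodium pump that drives many Slc carriers, had 0.51 and 0.67, which became 0.62 and 0.54 after median-centring, so that its call passed from fluoxetine to ECS. The lactate carrier chaperone Bsg had 0.04 and 0.42, and the kinases Wnk1 and Stk39, which regulate chloride carriers, had -0.31 and 0.04, and -0.29 and 0.33.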

How the data were processed

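The authors labelled pooled DG RNA, put each pool on its own 430A 2.0 mouse array (Affymetrix) and computed signal intensities with MAS5, which subtracts background and combines the probes of a probe set. The deposited intensities are linear, with array medians from 219 to 365 past the filter. A scaling target and a genome build are not given in the sources used here. Of 22690 probe sets, 64 controls were left out. From the rest, log2 ratios were computed with Python 3.11.15, numpy 2.4.6 and pandas 2.3.3, a signal of 0 being taken as 0.1. With 1 array per group no test was run, and the array number sets the precision. Gene names came from the platform annotation. All 262 Slc gene identifiers matched RefSeq with unaltered symbols, and 3 probe sets of several genes were left out.

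The Slc genes and lists were chosen with earlier results of these data known. Named were all genes called in both comparisons, up to 5 per treatment and direction at least 2-fold in 1 comparison and under 1.2-fold in the other, up to 3 per list with the largest mean of both ratios (signals below 50 taken as 50) and its brightest, genes called in opposite directions, and a fixed set. Others are marked as named after their values were seen. The steps were tested on simulated data. There were 8 alternatives: centring, quantile normalization, a floor of 50, other filters (a mean of 200, 50 on each array, none), averaged probe sets and exchanged control arrays.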

Additional observations from a re-analysis of the deposited data

Results flagged for a closer look

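Slc25a37 moved in opposite directions in the 2 treatments, with log2 ratios of -1.25 for ECS over sham and 0.86 for fluoxetine over vehicle. It was singled out for this alone, 9 of all 7935 genes did the same, and the difference between the treatments was not tested. Only 1 array stands behind each signal, and the sham pool was 0.90 above the vehicle pool after centring.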

How the results depend on the processing

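The counts of Slc genes called alike in both comparisons ran from 2 to 3 in each direction under every alternative except the absence of a filter, and most other counts stayed within 1.5 times. After median-centring, 7 genes rather than 4 were lower with fluoxetine, against 5.13% of all genes. With a mean of at least 200, which left 82 genes, 3 were higher and 5 lower with ECS, and 6 higher and 2 lower with fluoxetine, against 2.81%, 4.39%, 6.32% and 2.35% of the 5234 genes left. With at least 50 on each array, which left 133 genes, 6 were lower with ECS and 7 higher with fluoxetine, against 5.5% and 7.17% of 7369. Without a filter, 42 were higher and 44 lower with ECS, 38 higher and 31 lower with fluoxetine, and 14 higher and 14 lower with both, of 262. The shares of all 12393 genes were then 12%, 13.9%, 15.7%, 11.3%, 5.28% and 4.24%. With the control arrays exchanged and the ratios centred, 13 were lower with fluoxetine, against 6.43% of all genes, and the fluoxetine value of Slc25a37 turned to -0.16. The causes were not tested, other than where a filter alters the genes counted. Of the 17 genes called with ECS, 16 remained so after centring, 13 with a floor of 50 and 10 with exchanged controls, and of the 15 called with fluoxetine, 12, 15 and 10. No paired analysis was possible because each group has 1 array. Dim signals limit the precision: the control spread was 0.41 at the dimmest Slc genes and 0.11 at the brightest.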

Other observations

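Between the untreated pools, 5 of the 150 Slc genes differed at least 1.5-fold after centring, which is 3.33%, against 3.2% of all genes measured. Slc8b1 was higher in the sham pool by 1.01, Slc25a37 by 0.90, the mitochondrial dicarboxylate carrier Slc25a10 by 0.75 and the iron importer Slc11a2 by 0.66. The UDP-galactose carrier Slc35a2 was lower there, at -0.80, with signals of 152 in the sham pool and 376 in the vehicle pool. Its second probe set, with 102.5 and 118.5, did not show a difference of this size. These pools differed in handling and in treatment time, and each is 1 array.

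Of the 150 genes, 46 had a second probe set past the filter. Its ratio had the same sign as that of the brightest in 27 of 46 cases with ECS and in 37 of 46 with fluoxetine.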
